A study of Mus musculus with 9 samples.

Results

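The 9 Hox genes described here are Hoxa3, Hoxa5, Hoxa6, Hoxa7, Hoxa9, Hoxa10, Hoxb3, Hoxb4 and Hoxb5, taken as the rows of those names among 37882 genes in LSK cells of the mouse. LSK cells are the lineage-negative, Sca1-positive, cKit-positive fraction of bone marrow, which holds the blood stem cells and their earliest progeny. The 9 were selected on being expressed in these same libraries, out of 38 Hox cluster genes that have a row. Their levels are therefore a description, and their ranking against the Hox genes that were not selected carries no test. Just outside the selection were Hoxb7, whose highest value was 2.11 RPKM, and Hoxa4, whose highest value was 1.06 RPKM. Just inside it were Hoxb5, which reached 0.557 RPKM, and Hoxa6, which reached 1.59 RPKM. RPKM divides reads by transcript length and library size, so levels can be set side by side between genes.

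Cells came from 3 K36M mice, 3 K9M mice and 3 rtTA control mice, each library from a separate mouse. K36M mice carried rtTA in Rosa26 and H3K36M in Col1a1, that is, histone H3.3 with lysine 36 replaced by methionine. K9M mice carried rtTA in Rosa26 and H3K9M in Col1a1, with lysine 9 of H3.3 replaced by methionine. Control mice carried rtTA in Rosa26 alone, and rtTA is the activator that switches on a responsive transgene when doxycycline is present. All 9 mice had a B6/129 background, were 6 to 8 weeks old and drank water with doxycycline at 2 mg/ml and sucrose at 10 mg/ml. The labels name neither the promoter of the histone transgene nor the length of the treatment. A group with an unmutated H3.3 transgene was not part of the design, so in comparisons with rtTA the mutation and the mere presence of the transgene cannot be told apart.

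Hox genes encode homeodomain transcription factors, which lie in clusters named HoxA to HoxD and specify position along the body axis in the embryo. In blood, genes of the HoxA and HoxB clusters are active in stem and early progenitor cells and are turned down as the cells mature. Trithorax-type complexes such as those of MLL maintain Hox transcription, and Polycomb complexes repress it through methylation of lysine 27 of histone H3. Methylation of lysine 36 of H3 hinders Polycomb methylation on the same histone tail, and methylation of lysine 9 marks silent chromatin. Histone H3 with methionine at either lysine is known to block the enzymes that methylate that lysine.

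The 6 HoxA members lie in the order of their numbers on the minus strand of chromosome 6, and the 3 HoxB members lie on the plus strand of chromosome 11 (GENCODE M21, mm10). Hoxa9 (chr6:52223100-52231089) and Hoxa10 (chr6:52231197-52240854) are direct neighbours, and Hoxa7 (chr6:52214491-52221854) lies on the other side of Hoxa9. Promoter windows were matched for 7 of the 9 members in a RefSeq table on GRCm38.p6. The sequences are the 250 bases before each start of Hoxa10, the member that was lower in K36M cells, and before the RefSeq start of Hoxa7, the member that varied least. This Hoxa7 window lies inside the longer gene that M21 annotates. Each is written 5′ to 3′ on the minus strand of the gene. Capitals mark matches, on either strand, to the motifs searched. These were the core promoter element TATAAA and the element bound by the factor NF-Y, CCAAT. The word read by MEIS proteins was searched as TGACAG. The composite word of a HOX protein with its PBX partner was searched as TGATTNAT, and the word of CDX proteins as TTTATG.
Hoxa10, upstream start, chr6:52240855-52241104: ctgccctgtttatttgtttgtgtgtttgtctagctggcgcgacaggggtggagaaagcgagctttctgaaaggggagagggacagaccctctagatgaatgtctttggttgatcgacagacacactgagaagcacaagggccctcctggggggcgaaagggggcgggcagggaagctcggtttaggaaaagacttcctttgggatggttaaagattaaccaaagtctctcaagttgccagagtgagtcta
Hoxa10, downstream start inside the gene, chr6:52234940-52235189: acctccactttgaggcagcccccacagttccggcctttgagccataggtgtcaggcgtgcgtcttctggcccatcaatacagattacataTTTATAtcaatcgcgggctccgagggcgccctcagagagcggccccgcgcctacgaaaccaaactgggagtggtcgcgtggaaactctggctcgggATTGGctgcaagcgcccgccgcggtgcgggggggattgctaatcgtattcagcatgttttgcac
Hoxa7, RefSeq start inside the M21 gene, chr6:52218574-52218823: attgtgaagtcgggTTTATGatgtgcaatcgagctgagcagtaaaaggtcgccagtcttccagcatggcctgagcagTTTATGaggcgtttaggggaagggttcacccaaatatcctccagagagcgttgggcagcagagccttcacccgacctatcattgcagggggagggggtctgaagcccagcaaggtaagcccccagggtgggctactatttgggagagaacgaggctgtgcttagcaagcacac

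The window before the upstream start of Hoxa10 held no match to any of these motifs. The window before its downstream start held a TATAAA match and a CCAAT match, both on the opposite strand, and no 2 matches overlapped. The Hoxa7 window held 2 TTTATG matches. Over 32817 promoter windows of the same length, 12.4% held TATAAA, 33.8% CCAAT, 15.9% TGACAG, 2.8% TGATTNAT and 10.8% TTTATG. A match describes letters and not a site in use, and the values per gene below do not separate the starts of Hoxa10.

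Library depth, estimated from the smallest steps between low values, was about 15900000 to 50300000 reads. Sorted-cell markers were present in every library, with Kit, Ly6a and Cd34 together at 503 to 533 RPKM in K36M, 587 to 691 RPKM in K9M and 541 to 769 RPKM in rtTA libraries, K36M lying below both. Of the 4 T cell markers, the 3 CD3 genes stayed below 1 RPKM and Lck ran from 6.64 to 15.1 RPKM, and all 5 markers of mesenchymal stroma stayed below 1 RPKM. Some libraries stood apart from their groups. The 10 markers of mature granulocytes summed to 182 to 419 RPKM in K36M libraries, to 469 to 1120 RPKM in K9M libraries and to 1410, 744 and 6530 RPKM in rtTA 1 to 3. On the leading principal component, rtTA 1 lay at -26.7, close to the K9M libraries at -24.9 to -17.8, while rtTA 2 and rtTA 3 lay at 5.79 and 10.6. The 10 markers of long-term stem cells summed to 58.9, 107 and 72.3 RPKM in K36M 1 to 3, to 99.4 to 113 RPKM in K9M libraries and to 101 to 118 RPKM in rtTA libraries, and each of the 10 reached 1 RPKM in at least 1 library. The 7 markers of multipotent and lymphoid-primed progenitors summed to 487 to 549 RPKM in K36M, 808 to 1150 RPKM in K9M and 602 to 778 RPKM in rtTA libraries. The 8 erythroid markers summed to 178 to 320 RPKM in K36M, 152 to 240 RPKM in K9M and 86.6 to 154 RPKM in rtTA libraries. The 7 monocyte and macrophage markers with a row summed to 184, 127 and 392 RPKM in K36M 1 to 3. Their sums were 41.8 to 95.5 RPKM in K9M libraries and 77.4, 85.8 and 240 RPKM in rtTA 1 to 3. In sorted cells measured in bulk, fewer cells of a type and less RNA per cell cannot be told apart.

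In all groups Hoxa9, Hoxa7 and Hoxa5 were the most abundant members. Hoxa9, which drives self-renewal of blood progenitors and is a frequent partner in leukaemia, averaged 8.63 ± 1.02 RPKM in K36M cells, 12.8 ± 1.22 RPKM in K9M cells and 13.9 ± 3.74 RPKM in rtTA cells (SD, n = 3 each). Hoxa7, a HoxA gene also switched on by MLL fusion proteins, came next over the 9 libraries at a mean of 7.7 RPKM, followed by Hoxa5 at 5.24 RPKM and Hoxa10 at 2.07 RPKM. Hoxb3, Hoxb4 and Hoxa3 averaged 1.43, 1.41 and 1.02 RPKM, and Hoxa6 and Hoxb5 were lowest at 0.618 and 0.293 RPKM. Hoxa9 was the highest member in 8 of 9 libraries, the exception being K36M 3, where Hoxa7 was. In rtTA cells the ranges of Hoxa7 and Hoxa5 overlapped, as did those of Hoxa10 and Hoxb3 and those of Hoxb3, Hoxb4 and Hoxa3. Within each rtTA library, however, Hoxa10 was above Hoxb3, and Hoxb3 was above Hoxa3. The order of Hoxa7 and Hoxa5, and of Hoxb4 with Hoxb3 and Hoxa3, changed between rtTA libraries and is not resolved. The 9 members made up 83.9% to 91.5% of the RPKM of all Hox genes in each library.

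**Figure D1:**
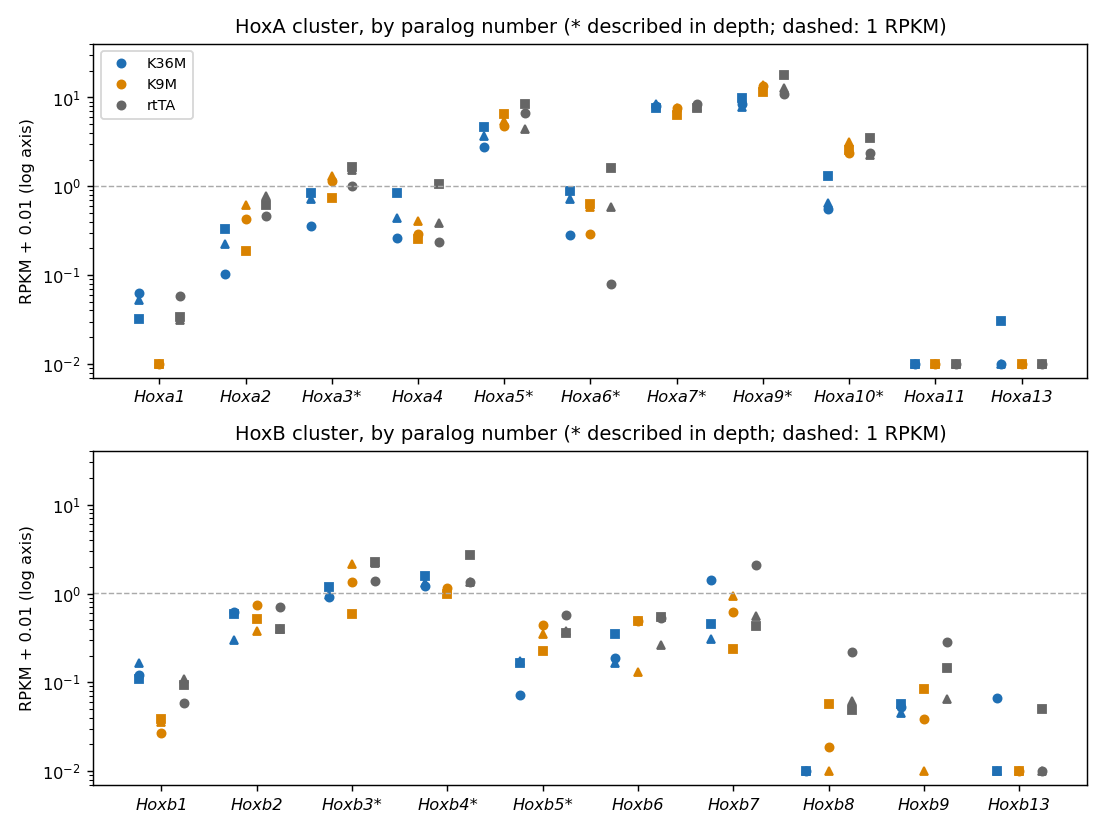
RPKM plus 0.01 on a log axis for every gene of the HoxA and HoxB clusters with a row, by paralog number; each point is a library (circle, square and triangle for replicates 1, 2 and 3), in the order K36M, K9M and rtTA within each gene. Levels peak at Hoxa9 and are near 0 at Hoxa11 and Hoxa13, and no HoxB gene exceeds 2.69 RPKM.

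Outside the selection, 29 Hox genes had a row, and 7 of them were listed at 0 in all 9 libraries. The highest of the HoxC cluster was Hoxc8, at up to 0.906 RPKM, and the HoxD cluster did not exceed 0.0542 RPKM. Hoxa2, Hoxb2 and Hoxb6 reached 0.759, 0.725 and 0.527 RPKM. Hoxb7 was uneven between mice of a group, at 1.41, 0.439 and 0.296 RPKM in K36M 1 to 3, at 0.609, 0.229 and 0.939 RPKM in K9M 1 to 3, and at 2.11, 0.422 and 0.545 RPKM in rtTA 1 to 3. The 3 groups overlapped for Hoxb7, with replicate 1 the highest in K36M and in rtTA. None of the 29 passed the filter for testing, which asked for 3 or more libraries with at least 1 RPKM. Of the 9 members, 7 passed it. Hoxa6 and Hoxb5 did not.

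**Figure D2:**
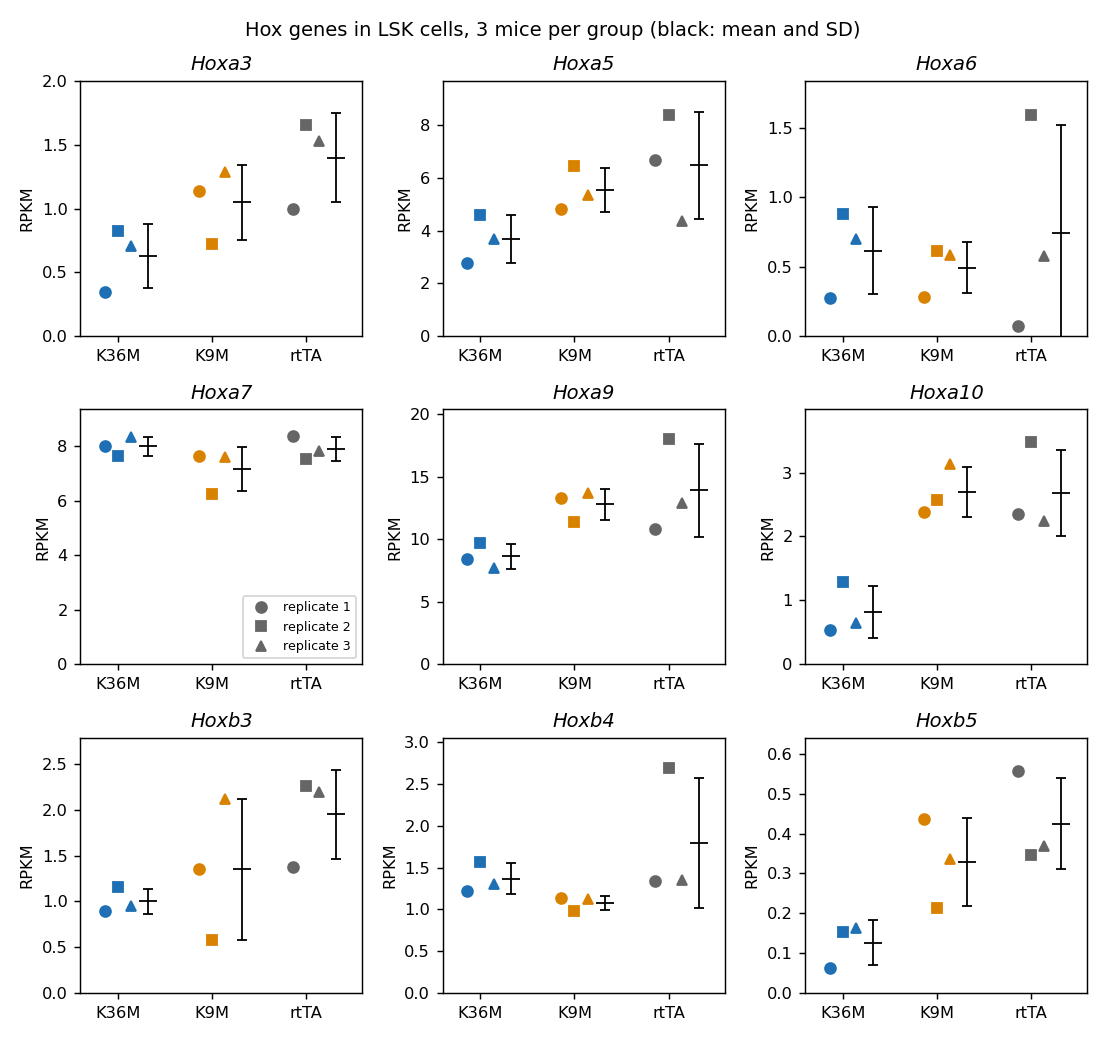
RPKM of the 9 Hox genes in each library, with K36M, K9M and rtTA from left to right; black bars give the mean and SD of 3 mice, and each panel has its own axis from 0, where the rtTA bar of Hoxa6 is cut off. Hoxa10 lies at or below 1.29 RPKM in K36M cells and at or above 2.24 RPKM in the other 6 libraries, while Hoxa7 stays between 6.26 and 8.40 RPKM.

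Hoxa10 showed the clearest difference between groups. This gene, whose forced expression expands blood progenitors and disturbs their maturation, had 0.543, 1.29 and 0.642 RPKM in K36M 1 to 3, against 2.39, 2.57 and 3.14 RPKM in K9M 1 to 3 and 2.35, 3.47 and 2.24 RPKM in rtTA 1 to 3. All K36M libraries were below all others, with K36M 2 the highest of its group, and K9M and rtTA overlapped. Mean RPKM was 3.26-fold lower in K36M than in rtTA cells and 3.27-fold lower in K36M than in K9M cells. On the log2(RPKM + 0.5) scale, which understates changes of low genes, Hoxa10 fell by 1.29 in K36M against rtTA (SE 0.248, 95% interval -1.85 to -0.73, limma adjusted p = 0.0441). Against K9M it fell by 1.31 in K36M cells (SE 0.248, limma adjusted p = 0.0332). The values rest on an estimated 105 to 562 reads per library, for the transcript length at which all 9 came out whole. That length was 4797 bases, against 3270 exon bases in M21, at which the reads would be fewer.

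The size of the Hoxa10 difference held when libraries were left out, and its call did not. Against rtTA the log2 fold change in K36M was -1.52 without K36M 2, with a limma adjusted p of 0.0203. Without K36M 1 it was -1.14 and without K36M 3 -1.20, with limma adjusted p of 0.175 and 0.165. Without rtTA 1, rtTA 2 or rtTA 3 it was -1.36, -1.12 or -1.39, with limma adjusted p of 0.0778, 0.0941 and 0.101. Without K9M 1, K9M 2 or K9M 3, which add to the estimate of spread alone, the limma adjusted p was 0.082, 0.0737 and 0.0742. Against K9M, limma adjusted p was 0.111, 0.0888 and 0.126 without K9M 1, 2 and 3, and 0.121 and 0.133 without K36M 1 and K36M 3, with fold changes of -1.38 to -1.16. The summed stem cell markers were lower in K36M 1 and K36M 3, the libraries with the least Hoxa10. The summed sort, lymphoid-primed and granulocyte markers were lower in all 3 K36M libraries than in all others. Single markers such as Ly6a, Satb1 and Lcn2 overlapped K9M. The erythroid sum was higher in K36M than in all rtTA libraries. Its Hbb-bt part was 206, 181 and 101 RPKM in K36M 1 to 3 and 9.8 to 14.4 RPKM in rtTA libraries. Klf1 was also higher without overlap, while Epor overlapped rtTA, at 3.63 RPKM in K36M 3 and 4.04 RPKM in rtTA 2. Car1 and Hba-a1 had lower means in K36M. The monocyte and macrophage sum was higher in K36M than in all K9M libraries and overlapped rtTA. The part of these markers in the Hoxa10 result was not tested.

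Among the tested members Hoxa10 was the only one called in K36M against rtTA, where 1.50% of all 12926 tested genes were called. In the comparison of K36M with K9M it was again the only one, where 2.52% of tested genes were called. Called means a Benjamini-Hochberg adjusted p under 0.05 over all tested genes. No member was called in K9M against rtTA, where 0.116% of tested genes were called, and none had an unadjusted p under 0.05 there. The called genes numbered 194 in K36M against rtTA and 301 with the replicate number as a block. Hoxa10 was called with the block too. Leaving out a library gave 10 to 397 genes called in K36M against rtTA, with 10 without K36M 1, 23 without K36M 3, 30 without rtTA 3 and 397 without K36M 2.

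**Figure D3:**
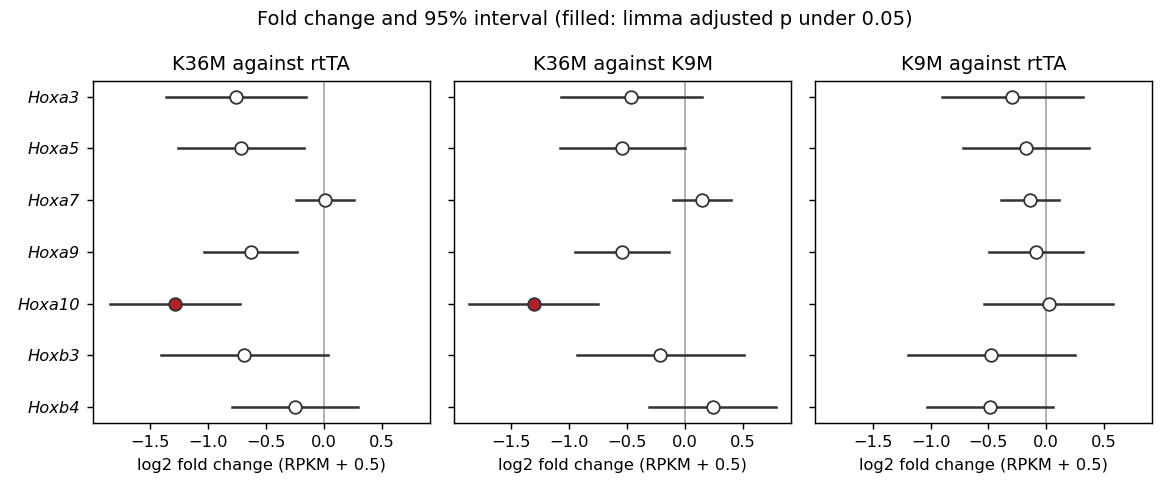
Log2 fold change of RPKM plus 0.5 with its 95% interval for the 7 Hox genes that passed the filter, in K36M against rtTA, K36M against K9M and K9M against rtTA; filled points have a limma adjusted p under 0.05. Hoxa10 is the only filled point, at -1.29 and -1.31, and the interval of Hoxa7 in K36M against rtTA runs from -0.24 to 0.26.

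Hoxa9, the neighbour of Hoxa10, had 8.43, 9.73 and 7.72 RPKM in K36M 1 to 3, against 13.3, 11.4 and 13.7 RPKM in K9M 1 to 3 and 10.8, 18.0 and 12.9 RPKM in rtTA 1 to 3. All K36M libraries were below all others, by a smaller margin than for Hoxa10, and rtTA 2 was the highest. Its log2 fold change in K36M was -0.63 against rtTA (SE 0.180, limma adjusted p = 0.117) and -0.55 against K9M (limma adjusted p = 0.146), so neither passed the test. Hoxa5, which acts in lung development and in the choice between myeloid and erythroid fates, had 2.79, 4.59 and 3.70 RPKM in K36M 1 to 3, against 4.81, 6.45 and 5.37 RPKM in K9M 1 to 3 and 6.68, 8.41 and 4.37 RPKM in rtTA 1 to 3. K36M lay below K9M in all libraries and overlapped rtTA through rtTA 3. For Hoxa5 the log2 fold change in K36M was -0.72 against rtTA (limma adjusted p = 0.159) and -0.54 against K9M (limma adjusted p = 0.268).

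Hoxa7 differed least between libraries. It had 8.00, 7.65 and 8.33 RPKM in K36M 1 to 3, against 7.65, 6.26 and 7.63 RPKM in K9M 1 to 3 and 8.40, 7.53 and 7.83 RPKM in rtTA 1 to 3. The highest of the 9 values was 1.34 times the lowest, against 6.38 times for Hoxa10. In K36M against rtTA the log2 fold change of Hoxa7 was 0.01 with a 95% interval of -0.24 to 0.26, and its sign turned when K36M 3 or rtTA 2 was left out. Exons of Hoxa7 share 586 of 2876 bases with the antisense gene Hoxaas3, and whether the authors counted reads by strand is not given in the sources used here.

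Hoxa3, a gene of thymus and neck formation that is also active in early blood-forming endothelium, had 0.348, 0.828 and 0.706 RPKM in K36M 1 to 3, against 1.14, 0.720 and 1.29 RPKM in K9M 1 to 3 and 0.996, 1.66 and 1.53 RPKM in rtTA 1 to 3. K36M lay below rtTA without overlap and overlapped K9M through K9M 2. The log2 fold change of Hoxa3 was -0.76 in K36M against rtTA (SE 0.270, limma adjusted p = 0.179), which did not pass. It met the filter for testing through K9M and rtTA libraries alone. Exons of Hoxa3 share 482 bases on the same strand with the gene model Gm28308 and 1529 with antisense genes, so its values are uncertain. Hoxa6, a trunk-patterning gene between Hoxa5 and Hoxa7, had 0.272, 0.876 and 0.700 RPKM in K36M 1 to 3, against 0.283, 0.614 and 0.582 RPKM in K9M 1 to 3 and 0.0696, 1.59 and 0.578 RPKM in rtTA 1 to 3. Its rtTA values alone spanned an estimated 2 to 93 reads, and all groups overlapped. The length fitted for these reads was 1732 bases, against 874 exon bases in M21.

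Of the HoxB members, Hoxb4 expands blood stem cells when forced on. It had 1.22, 1.57 and 1.31 RPKM in K36M 1 to 3, against 1.14, 0.981 and 1.12 RPKM in K9M 1 to 3 and 1.34, 2.69 and 1.35 RPKM in rtTA 1 to 3. K9M lay below both K36M and rtTA without overlap, and rtTA 2 set the rtTA mean of 1.79 ± 0.779 RPKM (SD, n = 3). The log2 fold change of Hoxb4 was -0.49 in K9M against rtTA (SE 0.242, 95% interval -1.03 to 0.06, limma adjusted p = 0.733). Hoxb3, which acts partly in place of Hoxb4 in stem cell proliferation, had 0.900, 1.16 and 0.946 RPKM in K36M 1 to 3, against 1.35, 0.578 and 2.12 RPKM in K9M 1 to 3 and 1.38, 2.26 and 2.20 RPKM in rtTA 1 to 3. K36M lay below rtTA without overlap, while K9M spread across both. For Hoxb3 the log2 fold change in K36M against rtTA was -0.69 (SE 0.319, limma adjusted p = 0.282), and 2250 of its 4251 exon bases face the antisense gene Hoxb3os.

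Hoxb5, a marker of long-term stem cells, was the scarcest member. It had 0.0617, 0.154 and 0.162 RPKM in K36M 1 to 3, against 0.436, 0.214 and 0.336 RPKM in K9M 1 to 3 and 0.557, 0.347 and 0.370 RPKM in rtTA 1 to 3, on 7 to 60 reads per library. All K36M libraries lay below all others, the mean being 3.37-fold lower than in rtTA and 2.61-fold lower than in K9M. It was tested in a fit without the filter, over 25824 genes, where its log2 fold change in K36M was -0.56 against rtTA (limma adjusted p = 0.16) and -0.40 against K9M (limma adjusted p = 0.278). The summed stem cell markers, which do not include Hoxb5, were lower in K36M 1 and K36M 3, and their part in the result was not tested.

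Counted over the members, 4 of the 7 tested were lower in K36M than in rtTA without overlap (Hoxa3, Hoxa9, Hoxa10 and Hoxb3), where 10.6% of all tested genes were. Against K9M 3 of the 7 were (Hoxa5, Hoxa9 and Hoxa10), where 13.4% of tested genes were. Hoxa7 and Hoxb4 were higher in K36M than in K9M without overlap. For Hoxa7 the lowest K36M and highest K9M values both rounded to 7.65 RPKM. The share of all tested genes that was higher was not computed. In K9M against rtTA only Hoxb4 was lower without overlap, where 5.43% of tested genes were. The median log2 fold change of the 7 was -0.69 in K36M against rtTA, against 0.02 over all tested genes. It was -0.47 in K36M against K9M and -0.17 in K9M against rtTA, where all tested genes had medians of 0.01 and 0.01. At an unadjusted p under 0.05 there were 4 members in K36M against rtTA (Hoxa3, Hoxa5, Hoxa9 and Hoxa10), 2 in K36M against K9M (Hoxa9 and Hoxa10) and 0 in K9M against rtTA. Of all tested genes, 19.1%, 18.8% and 7.11% were under it in these comparisons. Hoxa3 passed the filter through K9M and rtTA libraries alone, its K36M values being 0.348 to 0.828 RPKM. For Hoxa10 and Hoxb3, K36M 2 was the only K36M library to reach 1 RPKM. The 2 comparisons with rtTA share the rtTA libraries, and the members were chosen with results of these libraries known, so these counts describe the members and support nothing further.

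The balance between members also differed. Within each library, Hoxa10 stood at 0.0644, 0.132 and 0.0831 of the Hoxa9 level in K36M 1 to 3, against 0.180, 0.225 and 0.229 in K9M 1 to 3 and 0.218, 0.192 and 0.173 in rtTA 1 to 3. All K36M ratios were below all others, while K9M and rtTA overlapped, so Hoxa10 was low in K36M cells relative to its neighbour as well as in RPKM. Relative to Hoxa7, Hoxa10 stood at 0.0679 to 0.168 in K36M libraries, at 0.312 to 0.411 in K9M libraries and at 0.280 to 0.461 in rtTA libraries. The 9 members summed to 22.6, 27.9 and 24.2 RPKM in K36M 1 to 3, against 32.5, 29.8 and 35.3 RPKM in K9M 1 to 3 and 32.5, 46.0 and 33.4 RPKM in rtTA 1 to 3. This sum was lower in every K36M library than in the other 6.

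**Figure D4:**
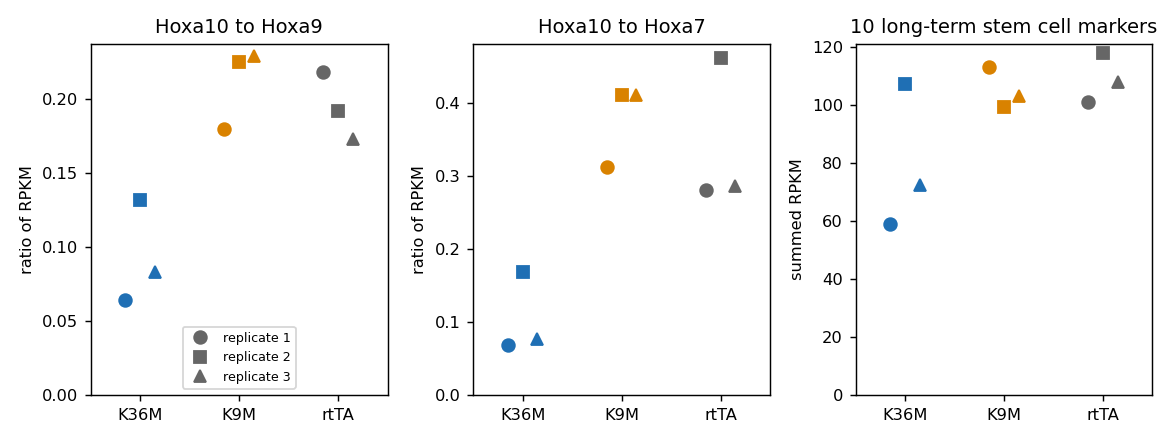
Ratio of Hoxa10 to Hoxa9 RPKM, ratio of Hoxa10 to Hoxa7 RPKM, and summed RPKM of 10 long-term stem cell markers, by library, with K36M, K9M and rtTA from left to right. Both ratios are lower in all K36M libraries than in all others, while the marker sum of K36M 2, at 107 RPKM, lies among the K9M and rtTA values and those of K36M 1 and K36M 3, at 58.9 and 72.3 RPKM, lie below them.

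Single mice differed across the members. In rtTA 2, 7 of the 9 members had their highest value of all libraries, the exceptions being Hoxa7 and Hoxb5, which were highest in rtTA 1. The same 7 members had their highest K36M value in K36M 2. K36M 1 had the lowest value of all libraries for Hoxa3, Hoxa5, Hoxa10 and Hoxb5. For Hoxa10, the K36M level as a share of the rtTA level of the same replicate number was 0.231, 0.372 and 0.287 for numbers 1 to 3. For Hoxa9 it was 0.784, 0.539 and 0.598, and for Hoxa7 it was 0.953, 1.02 and 1.06.

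Genes whose pattern over the 9 libraries was close to that of Hoxa10 included Epb4.1l3, a membrane skeleton protein, and Ctla2b, a relative of cysteine protease propeptides. Their mean absolute difference from Hoxa10, in log2 units after centring each gene, was 0.142 and 0.151, where Hoxa10 itself varied by 0.576 around its mean. Epb4.1l3 averaged 1.49 ± 0.493 RPKM in K36M cells, 4.10 ± 0.853 RPKM in K9M cells and 3.89 ± 0.906 RPKM in rtTA cells (SD, n = 3 each). No other Hox gene was among the 5 nearest to Hoxa10. Hoxa3 was the second nearest gene to Hoxb3, at 0.162 log2 units.

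Hox proteins bind DNA together with TALE homeodomain partners of the MEIS and PBX families. Of 10 such genes, 7 were tested and 0 were called by limma in any comparison, where 0.116% to 2.52% of all tested genes were called. At an unadjusted p under 0.05 there was 1 in each comparison, where 19.1% of all tested genes were in K36M against rtTA, 18.8% in K36M against K9M and 7.11% in K9M against rtTA. Meis1, the main MEIS partner in stem cells, averaged 12.8 ± 3.82 RPKM in K36M cells, 10.9 ± 0.559 RPKM in K9M cells and 13.1 ± 2.79 RPKM in rtTA cells (SD, n = 3 each). Pbx4 had 1.83, 0.541 and 3.65 RPKM in K9M 1 to 3, against 4.97, 5.70 and 3.63 RPKM in rtTA 1 to 3, with a log2 fold change of -1.27 (limma adjusted p = 0.532).

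Of 21 positive regulators of Hox transcription, including Kmt2a (the MLL gene), Men1, Dot1l and the Cdx genes, 18 were tested. In all comparisons 0 were called by limma, and none had an unadjusted p under 0.05. Of all tested genes, 1.50% were called in K36M against rtTA, 2.52% in K36M against K9M and 0.116% in K9M against rtTA. At an unadjusted p under 0.05 the shares were 19.1%, 18.8% and 7.11%. Kmt2a ran from 4.62 to 10.7 RPKM in K36M cells, from 5.62 to 7.94 RPKM in K9M cells and from 4.82 to 12.2 RPKM in rtTA cells. The 3 Cdx genes did not exceed 0.123 RPKM. All 14 Polycomb genes were tested. At an unadjusted p under 0.05 there were 3 in K36M against rtTA, 4 in K36M against K9M and 1 in K9M against rtTA. Of all tested genes, 19.1%, 18.8% and 7.11% were under it, and 1.50% were called in K36M against rtTA and 2.52% in K36M against K9M. Rnf2, a ubiquitin ligase of Polycomb complex 1, was the only one of the 14 called, in both of these comparisons. It had 18.5, 19.7 and 20.5 RPKM in K36M 1 to 3, against 28.1, 26.6 and 24.6 RPKM in K9M 1 to 3 and 29.7, 28.0 and 27.1 RPKM in rtTA 1 to 3. It fell by 0.52 in K36M against rtTA (SE 0.091, limma adjusted p = 0.0319) and by 0.42 in K36M against K9M (limma adjusted p = 0.0485). Against rtTA its limma adjusted p was 0.0565 to 0.133 without K9M 1, 2 or 3, K36M 1 or 3, or rtTA 1, 2 or 3, and against K9M it was 0.0644 to 0.184 without each library but rtTA 1. With only the 2 groups compared it was 0.122 against rtTA and 0.0673 against K9M, and against K9M it was 0.0622 with no filter, 0.0514 with median centring and 0.0671 with no trend. The other 13 genes, Ezh2 (29.0, 28.0 and 32.9 RPKM in K36M 1 to 3, against 24.1, 35.0 and 32.4 RPKM in rtTA 1 to 3) among them, were not called.

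Genes beside the HoxA and HoxB clusters were read to see whether the difference of Hoxa10 ran past the cluster. Of 22 such genes, 13 were tested and 0 were called by limma, where 0.116% to 2.52% of all tested genes were called. At an unadjusted p under 0.05 there were 3 in K36M against rtTA, 1 in K36M against K9M and 0 in K9M against rtTA. The shares of all tested genes were 19.1%, 18.8% and 7.11%, so these counts are near or below the background. Snx10, near the HoxA cluster, had 18.4, 16.8 and 20.1 RPKM in K36M 1 to 3, against 23.9, 20.5 and 26.3 RPKM in rtTA 1 to 3 (log2 fold change -0.34, limma adjusted p = 0.163). Hibadh, a mitochondrial enzyme gene near the HoxA cluster, had 27.6, 30.6 and 29.8 RPKM in K36M 1 to 3, against 35.8, 34.4 and 33.9 RPKM in rtTA 1 to 3 (log2 fold change -0.24, limma adjusted p = 0.17). Tax1bp1, an autophagy receptor gene beside Hibadh, had 56.5, 52.3 and 65.2 RPKM in K36M 1 to 3, against 47.8, 46.4 and 51.5 RPKM in rtTA 1 to 3 (log2 fold change 0.25, limma adjusted p = 0.237). The K36M and rtTA values of these 3 genes did not overlap, narrowly so for Snx10 and Tax1bp1. Snx10 and Hibadh were lower and Tax1bp1 higher in K36M, each by less than Hoxa10. Of all tested genes, 10.6% were lower in K36M than in rtTA without overlap, and the share that was higher was not computed. Of the 13, 10 had a positive log2 fold change in K36M against rtTA, where 47.7% of all tested genes had a negative one. Of 16 noncoding RNAs of the Hox clusters, 10 had a row and none passed the filter, the highest being Gm15051 at up to 1.06 RPKM.

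Of 12 genes reported downstream of HOXA9 and MEIS1 in blood cells, all were tested. Only in K36M against rtTA, where 1.50% of all tested genes were called, was any of the 12 called. This was Sox4, a transcription factor of lymphoid and stem cells. It had 32.7, 36.6 and 42.3 RPKM in K36M 1 to 3, against 58.3, 58.1 and 64.5 RPKM in rtTA 1 to 3, with a log2 fold change of -0.70 (SE 0.123, limma adjusted p = 0.0325). The limma adjusted p of Sox4 was 0.0584 to 0.128 without K9M 1 or 3, K36M 1 or 3, or rtTA 1, 2 or 3. It was 0.0649 with no filter and 0.0963 with only the 2 groups compared. At an unadjusted p under 0.05 there were 6 of the 12 in K36M against rtTA, 6 in K36M against K9M and 3 in K9M against rtTA, where 19.1%, 18.8% and 7.11% of all tested genes were. Directions were mixed. In K36M, 8 of the 12 had a negative log2 fold change against rtTA and 6 against K9M, with medians of -0.10 and -0.001. Mecom was among the higher ones, at 0.40 against rtTA and 0.45 against K9M. Cd34, Flt3 and Mecom were also among the markers summed above. The list was chosen with earlier results of these data known, so these counts support nothing further. Myb had 128, 123 and 159 RPKM in K36M 1 to 3, against 120, 138 and 150 RPKM in rtTA 1 to 3, and its groups overlapped.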

How the data were processed

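RNA was sequenced from LSK cells of 9 mice, 3 in each group. The authors deposited RPKM values for 37882 genes, made on the mm10 build with CASAVA 1.7 and STAR, per the submitters' processing notes. How multiply mapping reads and strand were handled, and the version of STAR, is not given in the sources used here. Per the labels, the RNA is polyA RNA and the kit a total RNA kit.

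From these RPKM values, log2(RPKM + 0.5) was analysed for the 12926 genes that reached 1 RPKM in 3 or more libraries. limma 3.58.1 in R 4.3.3 fitted 3 group means to all 9 libraries with a mean-variance trend, with 6 degrees of freedom for the residuals and 3.14 for the prior. Two-sided tests were used, and genes with a Benjamini-Hochberg adjusted p under 0.05 were called. The fit was tested on simulated data. The members, gene lists and marker lists were chosen with earlier results of these data known. Named were the 9 members, other Hox genes reaching 0.5 RPKM, the called genes of each list or else those of smallest p, and the genes most like a called member; some results that this rule names are not reported here. Further genes (Meis1, Kmt2a, Ezh2, Tax1bp1 and Myb) were named after their values were seen.

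Depth was estimated from the steps between low RPKM values. With GENCODE M21 lengths, 50.4% to 52.1% of values worth up to 20 reads were whole within 0.02, against 4% by chance, so no count test was run. Reads are given for a gene only where a length could be found at which its 9 values were whole within 0.1. Replicate numbers are shared by the groups. Deviations of same-number libraries from their group means correlated at 0.414, 0.369 and 0.377 between K36M and rtTA, all above 0.1, so the fit with the number as a block is given wherever a call, or a count by more than 1.5 times, depends on it. The labels do not state such a pairing; it is read from the data. The pseudocount, filter, scaling, prior, library weights, block and set of libraries were each varied.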

Additional observations from a re-analysis of the deposited data

How the results depend on the processing

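Of the log2 fold changes of the 7 tested Hox genes, 391 of 418 values under the alternatives kept their direction and their side of the threshold, 17 lost the call (all of them Hoxa10) and 10 turned in sign, all of them genes not called. The log2 fold change of Hoxa10 was -1.65 to -1.02 in K36M against rtTA over 20 alternatives and was called in 9 of them, and it was -1.67 to -1.04 in K36M against K9M, called in 14 of 20. Its call was lost against rtTA with no filter (adjusted p = 0.097), with library weights (0.0612) and with only the 2 groups compared (0.135), leaving 0 members called, and against K9M with no filter (0.0838), again 0. Leaving out each library gave 0 to 1 members called in both. In K9M against rtTA, Hoxa5 turned to 0.006 with library weights and ran from -0.413 to 0.023 leaving out each library, Hoxa9 ran from -0.249 to 0.11, and Hoxa10 ran from -0.079 to 0.189. In K36M against rtTA, Hoxa7 ran from -0.019 to 0.055 and Hoxb4 from -0.383 to 0.016. In K36M against K9M, Hoxb3 ran from -0.556 to 0.084.

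Genes called in K36M against rtTA (194) came to 76 with no filter, 26 with only the 2 groups compared and 301 with the replicate block, and to 10 to 397 leaving out each library. Those in K36M against K9M (326) came to 118 with no filter, 589 with library weights and 595 with the replicate block, and to 15 to 506 leaving out each library. Those in K9M against rtTA (15, of which 12 higher) came to 4 with no filter, 8 with quantile scaling, 8 with median centring (8 higher), 62 with library weights and 3 to 32 leaving out each library. The replicate block changed no call of a Hox gene. Same-number correlations were 0.162, 0.0599 and 0.0174 between K9M and rtTA and 0.0741, -0.171 and 0.053 between K36M and K9M. Values of this size cannot tell whether the number is a pairing there, and the labels state none. The causes of these changes were not tested. Low reads limit Hoxa6 and Hoxb5.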
